A study of Mus musculus with 35 samples.

Results

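The 10 genes described here encode very long proteins that tie the cytoskeleton to membranes, organelles and the nucleus: Ahnak, Sptbn1, Macf1, Plec, Utrn, Syne1, Syne2, Dync1h1, Flna and Myh9. They are 10 of the 55487 genes listed in the count tables and of the 21897 protein-coding genes there with a coding sequence in the annotation used. The list was chosen from measured values: Ahnak, Sptbn1 and Macf1 were first noticed for a higher footprint-to-RNA ratio under treatment in sgScramble cells, and the rest were added as genes of the same kind. That comparison is therefore only described, with no test, and the other comparisons are tested on the whole table. All 10 genes passed the low-count filter of every fit.

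Spectrins such as the one made from Sptbn1 form a net under the plasma membrane. Filamin A, made from Flna, cross-links actin and is abundant in blood cells, and the heavy chain from Myh9 forms the nonmuscle myosin IIA motor that contracts actin in leukocytes and platelets. Plectin, from Plec, ties intermediate filaments to other structures, and Macf1 encodes a spectraplakin that bridges actin and microtubules. Utrophin, from Utrn, is a relative of dystrophin. Nesprins from Syne1 and Syne2 cross the space of the nuclear envelope together with SUN proteins, and Dync1h1 encodes the heavy chain of cytoplasmic dynein, which walks along microtubules. Ahnak encodes a giant scaffold that binds the S100a10 and annexin A2 complex at the plasma membrane.

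Leukemia cells of the mouse line MLL-AF9, which carry a fusion oncogene and express GFP, were guided against Ogfod1 (sgOgfod1), a prolyl hydroxylase that modifies a ribosomal protein, or held a scrambled guide (sgScramble). Each male recipient, 8 to 10 weeks old, received the cells by injection, and GFP-positive cells were sorted from its marrow at the point of largest response to chemotherapy. All groups share the line, which came from 1 terminally ill mouse, and the host marrow. Treated mice were given a diet free of branched-chain amino acids together with 100 mg/kg cytarabine daily on 5 days and 3 mg/kg doxorubicin on the first 3 of them, and vehicle mice ate a standard amino acid diet and received PBS, so diet and drugs cannot be told apart. RNA was counted in 6 treated sgOgfod1, 5 vehicle sgOgfod1, 7 treated sgScramble and 5 vehicle sgScramble mice, and ribosome footprints, the stretches of mRNA that ribosomes shield from nuclease, in 2, 3, 4 and 3 of them. Nothing in the labels says that mice of a group were handled independently, so the p-values measure the spread between these mice.

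Sequence bears on how such genes are counted, and 2 stretches show why. The Ahnak coding sequence repeats itself: of its 16939 windows of 30 nucleotides, 29.9% occur again within Ahnak, and 1 window occurs 14 times. Such reads belong to Ahnak wherever they are placed, but a counter that drops reads with several positions would lose them. Myh9 shares 2.22% of its windows with Myh10, Myh11 or Myh14, and its longest run shared with Myh10 is 122 nucleotides. Plec shares 0.271% with Eppk1, Sptbn1 0.0708% with other spectrins, and the other genes none. The repeated Ahnak window (first copy at position 4141 of the coding sequence) and the whole run that Myh9 and Myh10 have in common (from position 1381) are printed in lower case, since every base of each is repeated.
Ahnak repeat: aaaatgcccaagttcagcatgcctggcttc
Myh9 and Myh10 run: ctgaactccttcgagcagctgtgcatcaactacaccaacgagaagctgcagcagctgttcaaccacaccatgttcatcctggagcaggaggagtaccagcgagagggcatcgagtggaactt

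In the comparison of treated with vehicle sgOgfod1 mice, Ahnak had the largest RNA and footprint change of the 10 genes, so its promoter is shown. It lies on the plus strand at chr19:8989034-8989333 (GRCm38.p6, RefSeq start) and reaches from 250 bases before to 50 bases after the start. Its GC content is 67.3%, and the capitals mark 4 matches to the letters GGGCGG on the opposite strand, read as CCGCCC.
Ahnak promoter: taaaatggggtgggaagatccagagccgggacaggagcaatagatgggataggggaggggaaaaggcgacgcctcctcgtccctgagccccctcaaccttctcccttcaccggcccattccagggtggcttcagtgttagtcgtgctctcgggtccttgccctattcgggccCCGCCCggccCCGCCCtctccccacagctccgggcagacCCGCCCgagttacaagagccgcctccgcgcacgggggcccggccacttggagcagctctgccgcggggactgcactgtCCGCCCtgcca
The letters GGGCGG, searched on both strands, were found in 7 of the 12 promoters that RefSeq lists for 9 of the genes, against 35.7% of 32851 mouse promoters of the same length. TATAAA was found in 2 of the 12 (13.6% of all), and CCAAT in 1 (37.4% of all).

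The genes span 26.4 kb (Flna, chrX:74223461-74249820, minus strand) to 531 kb (Syne1, chr10:5020917-5551482, minus strand) in GRCm38. Ahnak lies at chr19:8989284-9076914 (plus strand), Sptbn1 at chr11:30099395-30268175, Macf1 at chr4:123349633-123684360 and Plec at chr15:76170974-76232574, all 3 on the minus strand. Utrn lies at chr10:12382188-12869365 (minus), Syne2 at chr12:75818134-76110926 (plus), Dync1h1 at chr12:110601452-110666945 (plus) and Myh9 at chr15:77760587-77842175 (minus). Their longest coding sequences hold 1960 codons in Myh9, 2363 in Sptbn1, 2647 in Flna, 3430 in Utrn, 4644 in Dync1h1, 4691 in Plec, 5656 in Ahnak, 6874 in Syne2, 7355 in Macf1 and 8799 in Syne1, against a median of 391 codons over 21951 coding genes of the annotation. Exons of Plec overlap Parp10 by 205 nucleotides, those of Dync1h1 overlap 2 predicted genes by 403 and 48, and those of Sptbn1 overlap an antisense transcript by 134. Parp10 lies on the same strand as Plec, so strand could not separate reads in that overlap. The genes that overlap Dync1h1 and Sptbn1 lie on the opposite strand, but the RNA protocol keeps no strand. Reads in all those stretches are therefore uncertain. Leucine, isoleucine and valine, the amino acids missing from the diet, make up 19.7% to 24.1% of the residues in these genes, with a median of 22.2%, against 21.0% over 20912 coding genes.

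Total counts ran from 31921768 to 142694163 over the RNA libraries and from 5705585 to 14642692 over the footprint libraries. Ogfod1 RNA was 3.75 to 13.0 CPM (counts per 1000000 library counts) in treated and 8.57 to 11.7 CPM in vehicle sgOgfod1 mice, against 12.3 to 31.6 CPM in treated and 19.7 to 24.9 CPM in vehicle sgScramble mice. Its footprints were 1.44 to 2.98 CPM in the 5 sgOgfod1 mice and 12.4 to 17.5 CPM in the 7 sgScramble mice. RNA of treated sgScramble replicate 4 and treated sgOgfod1 replicate 3 stood apart, and vehicle sgOgfod1 replicate 4 was high in footprints of several of the 10 genes. Leukemia markers summed to 3195 to 7023 CPM in all RNA libraries, with 13 of 13 detected in each. For treatment in sgOgfod1, 1 of the 13 rose and 4 fell in RNA, and 0 rose and 4 fell in footprints. Cd33, Itgam and Ptprc weighed most in the sum, reaching 2760, 1778 and 1490 CPM in treated and 1288, 845 and 946 CPM in vehicle sgOgfod1 RNA. Kit, Cd34 and Flt3 reached 84.0, 60.9 and 2.53 CPM in treated and 233, 302 and 16.7 CPM in vehicle sgOgfod1 RNA. In RNA, 5 of 10 erythroid markers fell and 3 of 6 megakaryocyte markers rose. Markers of neutrophils summed to 17849 to 82750 CPM in treated and 6637 to 16675 CPM in vehicle sgOgfod1 RNA, and those of tissue macrophages to 989 to 2392 and 693 to 1031 CPM, with 9 of 12 and 11 of 16 markers past the threshold as higher, and at most 1 macrophage marker at 0. Their part in the results below was not tested. In sorted cells in bulk, fewer cells of a type and less RNA per cell cannot be told apart.

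Levels per length differed widely between the genes. In vehicle sgScramble mice, the mean RNA level per kilobase of exon was 183 CPM for Flna, 22.0 for Myh9 and 20.0 for Sptbn1, and between 0.550 for Syne2 and 3.84 for Plec for the other 7. Myh9 and Sptbn1 did not differ beyond their SDs of 3.30 and 1.61, and neither did Plec, Dync1h1 and Syne1, at 3.84 ± 0.470, 3.37 ± 0.609 and 3.33 ± 0.320 (SD, n = 5). The order of footprints per kilobase of coding sequence was different. Myh9 led with 204 ± 6.13 CPM, followed by Flna at 55.1 ± 0.605 and Dync1h1 at 8.03 ± 0.704, with Syne2 last at 0.177 ± 0.0487 (SD, n = 3). The smallest count behind any value was 35 reads in RNA (Ahnak) and 23 in footprints (Syne2), and 11 of the 120 footprint values rested on under 100 reads.

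**Figure D1:**
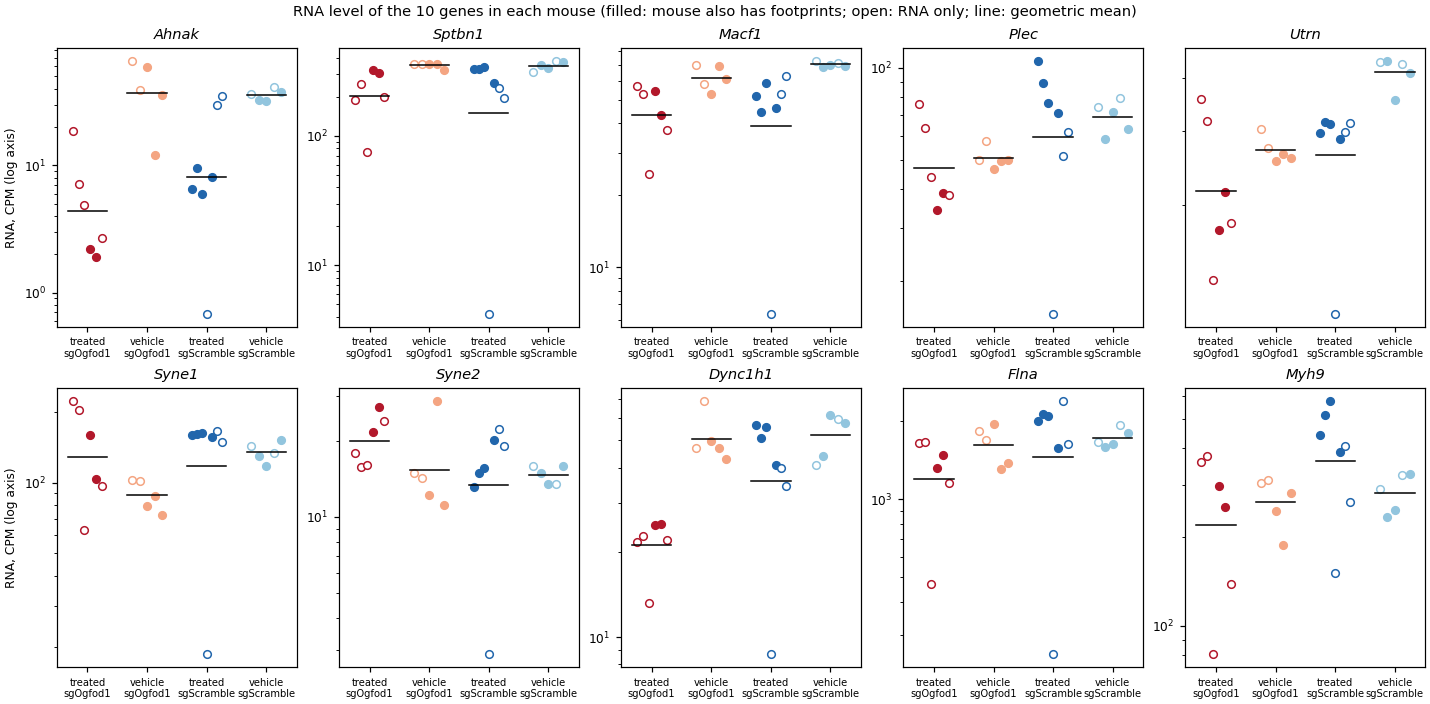
RNA level of the 10 genes in CPM on a log axis, 1 point per mouse, filled where the mouse also has footprints, with the geometric mean of each group as a line. Dync1h1 in treated sgOgfod1 mice lies at 13.2 to 25.2 CPM, below all vehicle sgOgfod1 mice, and the lone low point of treated sgScramble in most panels is replicate 4.

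The first question was how treatment changed these genes in sgOgfod1 cells. Ahnak fell in RNA and in footprints, Dync1h1 fell in RNA, and Flna and Syne1 rose in footprints. In RNA, 2 of the 10 genes fell and 0 rose, where 9.87% of the 21474 genes tested were called in either direction (edgeR quasi-likelihood test, Benjamini-Hochberg adjusted p below 0.05). In footprints, 1 fell and 2 rose, where 8.22% of 18290 genes were called.

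Ahnak RNA measured 18.7, 7.12, 4.86, 2.21, 1.91 and 2.70 CPM in the 6 treated sgOgfod1 mice, against 66.4, 39.0, 58.8, 12.1 and 36.0 CPM in the 5 vehicle sgOgfod1 mice. The groups overlapped, since the highest treated mouse lay above the lowest vehicle mouse, replicate 4. The log2 fold change was -2.76 ± 0.68 (SE), with an adjusted p of 0.0114 in edgeR. Ahnak footprints measured 16.2 and 12.9 CPM in the treated sgOgfod1 mice and 168, 110 and 117 CPM in the vehicle sgOgfod1 mice, with no overlap. That fall was -3.18 ± 0.24 on the log2 scale, with an adjusted p of 3.32e-05 in edgeR. Footprints per RNA read did not pass the threshold in that comparison, at 0.77 ± 0.52 (adjusted p = 1 in edgeR).

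The partner S100a10, which forms the complex that binds Ahnak at the membrane, fell as well. Its RNA averaged 18.0 ± 11.9 CPM in treated and 74.1 ± 21.7 CPM in vehicle sgOgfod1 mice (SD, n = 6 and 5), a log2 fold change of -2.04 ± 0.38 with an adjusted p of 0.00129 in edgeR. S100a10 footprints averaged 4.22 ± 0.296 and 31.4 ± 11.9 CPM (SD, n = 2 and 3), a change of -2.91 ± 0.40 with an adjusted p of 0.00321. Anxa2, for annexin A2, the other part of that complex, differed by 0.48 ± 0.31 in RNA and 0.16 ± 0.23 in footprints (adjusted p = 0.346 and 0.74). The dysferlin gene Dysf, of membrane repair, rose in footprints by 1.39 ± 0.37 (adjusted p = 0.0276 in edgeR), but only to 2.60 CPM, against 0.993 CPM in vehicle mice. RNA of the paralog Ahnak2 passed the threshold as higher (adjusted p = 0.00533) at a mean of 0.565 CPM, against 0.00404 CPM in vehicle mice, a level too low for a fold change.

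Dync1h1 RNA measured 21.7, 22.8, 13.2, 25.0, 25.2 and 22.2 CPM in treated sgOgfod1 mice, and 46.8, 68.9, 49.6, 46.9 and 42.9 CPM in vehicle sgOgfod1 mice. Every treated mouse lay below every vehicle mouse. The fall was -1.24 ± 0.29 log2 units (edgeR adjusted p = 0.00774). Footprints of Dync1h1 measured 161 and 193 CPM in treated and 158, 194 and 133 CPM in vehicle sgOgfod1 mice, a difference of 0.13 ± 0.15 (adjusted p = 0.649). Footprints per RNA read of this dynein chain were thus 6.45 and 7.66 in treated mice, against 3.20, 4.14 and 3.11 in vehicle mice, and did not overlap. The translation efficiency of Dync1h1, that is, footprints relative to mRNA, was up by 1.07 ± 0.18 log2 units (edgeR adjusted p = 0.022), and it was the 1 member called where 0.0524% of 28606 genes were called. Without vehicle sgOgfod1 replicate 3 or 5, or treated sgOgfod1 replicate 5, its adjusted p was 0.109, 0.0917 or 0.173. With a term for library numbers from 17 up, it was 0.596.

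Flna footprints measured 1066 and 938 CPM in treated and 647, 642 and 563 CPM in vehicle sgOgfod1 mice, with no overlap. The rise was 0.70 ± 0.13 (adjusted p = 0.00497 in edgeR), while Flna RNA differed by -0.34 ± 0.34 (adjusted p = 0.567). Syne1, the nesprin that links the nucleus to actin, had footprints of 242 and 121 CPM in treated and 94.4, 94.6 and 89.8 CPM in vehicle sgOgfod1 mice. That rise of 0.97 ± 0.21 (adjusted p = 0.016 in edgeR) rested on treated replicate 4, without which it was 0.39 (adjusted p = 0.157). Without vehicle sgOgfod1 replicate 5 the adjusted p of Syne1 was 0.0503.

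The other 6 genes passed in neither assay. RNA of the beta spectrin gene Sptbn1 ran from 75.1 over a median of 224 to 323 CPM in treated and from 326 over 357 to 361 CPM in vehicle sgOgfod1 mice, a difference of -0.65 ± 0.50 (adjusted p = 0.44 in edgeR). Those groups did not overlap, and Sptbn1 footprints of 73.9 and 102 CPM in treated against 60.6, 124 and 55.1 CPM in vehicle mice differed by 0.15 ± 0.30 (adjusted p = 0.82). RNA of the spectraplakin gene Macf1 ran from 24.5 over a median of 48.0 to 57.1 CPM in treated and from 53.0 over 61.0 to 69.7 CPM in vehicle sgOgfod1 mice, a difference of -0.47 ± 0.32 (adjusted p = 0.368 in edgeR). Those groups overlapped, and Macf1 footprints of 42.9 and 56.8 CPM in treated against 43.1, 68.1 and 45.7 CPM in vehicle mice differed by -0.06 ± 0.17 (adjusted p = 0.882). RNA of the plectin gene Plec ran from 34.4 over a median of 41.3 to 75.8 CPM in treated and from 46.7 over 49.8 to 57.6 CPM in vehicle sgOgfod1 mice, a difference of -0.05 ± 0.29 (adjusted p = 0.939 in edgeR). Those groups overlapped, and Plec footprints of 63.0 and 81.1 CPM in treated against 52.3, 96.4 and 46.7 CPM in vehicle mice differed by 0.16 ± 0.26 (adjusted p = 0.771).

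RNA of the utrophin gene Utrn ran from 13.4 over a median of 19.8 to 35.6 CPM in treated and from 25.4 over 26.5 to 30.3 CPM in vehicle sgOgfod1 mice, a difference of -0.24 ± 0.23 (adjusted p = 0.554 in edgeR). Those groups overlapped, and Utrn footprints of 16.1 and 17.1 CPM in treated against 16.9, 21.7 and 13.9 CPM in vehicle mice differed by -0.05 ± 0.22 (adjusted p = 0.927). RNA of the nesprin gene Syne2 ran from 15.7 over a median of 19.7 to 27.2 CPM in treated and from 11.1 over 14.2 to 28.7 CPM in vehicle sgOgfod1 mice, a difference of 0.33 ± 0.32 (adjusted p = 0.556 in edgeR). Those groups overlapped, and Syne2 footprints of 12.8 and 21.2 CPM in treated against 9.40, 22.8 and 7.04 CPM in vehicle mice differed by 0.45 ± 0.43 (adjusted p = 0.599). RNA of the myosin gene Myh9 ran from 80.1 over a median of 275 to 376 CPM in treated and from 188 over 282 to 312 CPM in vehicle sgOgfod1 mice, a difference of -0.09 ± 0.32 (adjusted p = 0.893 in edgeR). Those groups overlapped, and Myh9 footprints of 1868 and 1474 CPM in treated against 1419, 1023 and 1157 CPM in vehicle mice differed by 0.48 ± 0.16 (adjusted p = 0.0835). Translation efficiency changes of the genes other than Dync1h1 and Ahnak did not pass in the main edgeR fit. They were 0.87 ± 0.21 for Flna, 0.67 ± 0.24 for Plec, 0.42 ± 0.22 for Utrn and 0.41 ± 0.28 for Sptbn1. Those of Macf1, Myh9, Syne1 and Syne2 were 0.32 ± 0.18, 0.31 ± 0.21, 0.24 ± 0.14 and -0.04 ± 0.23. Flna was called as higher with no filter, the replicate block, coding genes only or the length offset (adjusted p = 1.97e-05, 0.028, 0.000799 and 0.0132 in edgeR). DESeq2 called it too (adjusted p = 0.00281).

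Both treated sgOgfod1 footprint libraries carry library numbers from 17 up, and none of the vehicle libraries does. With a term for those numbers, which is estimated from treated sgScramble mice alone, Flna was at 0.85 (adjusted p = 0.119) and Syne1 at 0.80 (adjusted p = 0.338), and only Ahnak remained called. Leaving out vehicle sgOgfod1 replicate 4, which was high in these footprints, gave 6 called genes, as Sptbn1 (0.61), Plec (0.54) and Syne2 (1.07) were added as higher. Over all genes, leaving out that mouse gave at most 1295 footprint calls in this comparison, beside 1503 with all mice. Myh9, at 0.48 ± 0.16 (adjusted p = 0.0835), was called as higher with no filter, the replicate block, coding genes only, the length offset, or without vehicle sgOgfod1 replicate 3 (adjusted p = 0.00723, 0.0463, 0.0331, 0.0369 and 0.0499 in edgeR).

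In RNA, the 2 libraries that stood apart changed the set. Without them, Ahnak and Dync1h1 stayed called, Sptbn1 (-0.46) and Macf1 (-0.33) were called as lower and Syne1 (0.83) as higher (adjusted p = 0.0375, 0.0441 and 0.00157 in edgeR). Calls over all genes moved as well, to between 88 and 3877 across 4 RNA comparisons without those 2 libraries. That range gives no share for this comparison, so the added calls are no result about the 10 genes. The median log2 change of the 10 genes was -0.29 in RNA and 0.16 in footprints, beside -0.00 and -0.01 for all genes tested. Other genes of at least 1960 codons had medians of -0.50 and -0.08, and 52 of the 414 tested in RNA were called as lower. An offset for the length trend of each library turned the RNA median of the 10 genes to 0.30, with Plec (0.75), Syne1 (1.40) and Syne2 (1.18) called as higher while Ahnak and Dync1h1 stayed lower. Over the mice without footprints, 0 of the 10 genes passed the threshold in RNA, where 0.455% of 21967 genes did, with Ahnak at -2.64 ± 0.99 and Dync1h1 at -1.51 ± 0.46 (adjusted p = 0.307 and 0.202). In those mice, 3 were called once the 2 libraries standing apart were left out, namely Ahnak, Sptbn1 and Dync1h1.

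**Figure D2:**
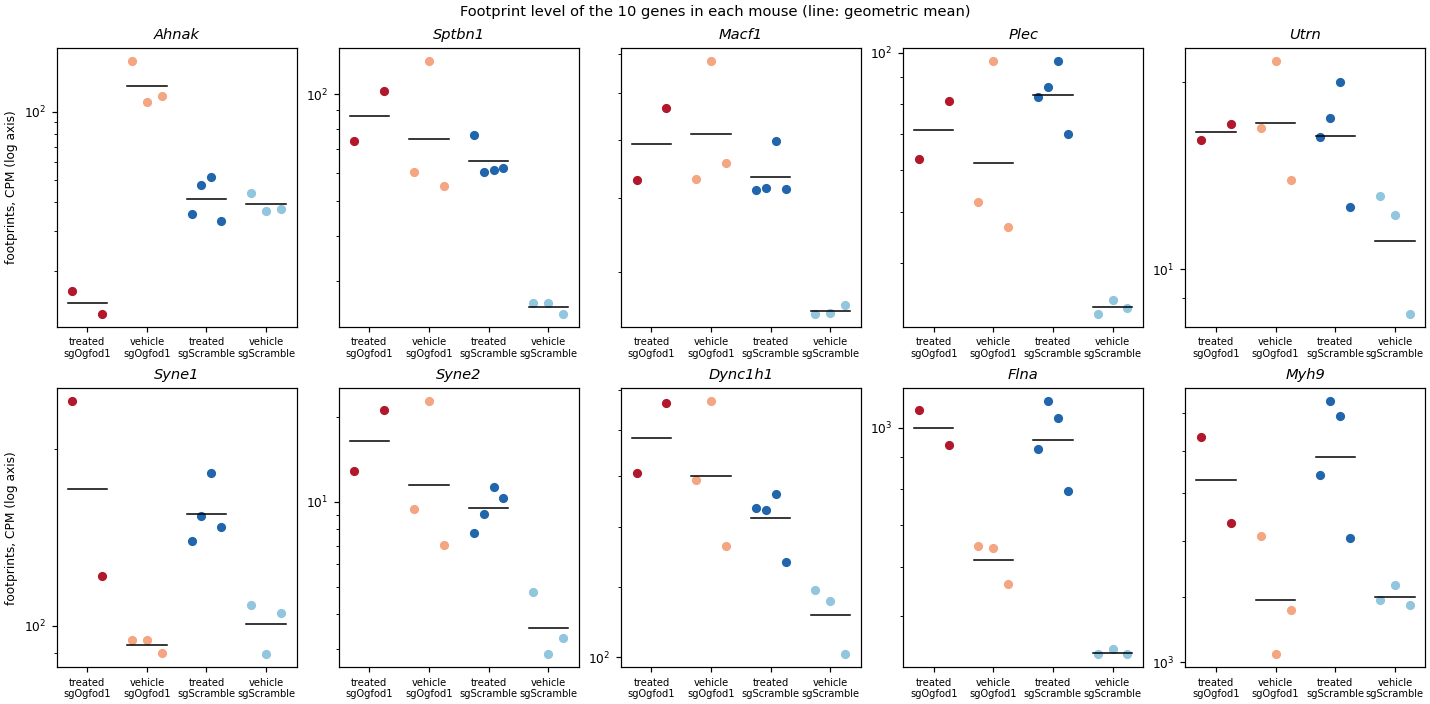
Footprint level of the 10 genes in CPM on a log axis, 1 point per mouse, with the geometric mean of each group as a line. Ahnak is lowest in the treated sgOgfod1 mice, at 16.2 and 12.9 CPM, and highest in the vehicle sgOgfod1 mice. Vehicle sgScramble is the lowest group for Sptbn1, Macf1, Plec, Utrn, Syne2, Dync1h1 and Flna.

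The second question was how sgOgfod1 cells differed from sgScramble cells without treatment. Their RNA gave no call, and footprints of 5 genes were higher in sgOgfod1 cells. RNA gave 0 calls among the 10, where 0.116% of all genes were called, and the members' log2 changes ran from -0.61 for Utrn to 0.24 for Ahnak. At an unadjusted p below 0.05 in edgeR there was 1, Utrn, and DESeq2 called 0. These comparisons use the vehicle sgScramble mice that also served in the comparison in which the genes were first noticed. Footprints of Ahnak, Macf1, Sptbn1, Flna and Dync1h1 rose, 5 of 10 genes, where 1.81% of all genes tested were called. Footprints of those sgScramble mice entered the ratio by which Ahnak, Sptbn1 and Macf1 were first noticed. A rise against them is favoured by that choice, so this count is no independent support.

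Ahnak footprints measured 168, 110 and 117 CPM in vehicle sgOgfod1 mice and 43.98, 36.5 and 37.2 CPM in vehicle sgScramble mice. The rise was 1.75 ± 0.19 (adjusted p = 0.000554 in edgeR), and the groups lay far apart. Ahnak RNA overlapped between the same groups, with 58.8, 12.1 and 36.0 CPM in those 3 sgOgfod1 mice and 32.6, 32.03 and 37.9 CPM in the 3 sgScramble mice.

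Sptbn1 footprints measured 60.6, 124 and 55.1 CPM in vehicle sgOgfod1 mice, against 25.9, 25.99 and 24.2 CPM in vehicle sgScramble mice. That rise of the spectrin was 1.64 ± 0.28 (adjusted p = 0.0202 in edgeR), and 1.19 without sgOgfod1 replicate 4 (adjusted p = 0.000734). Without any 1 vehicle sgScramble mouse the Sptbn1 call was lost (adjusted p = 0.0808 to 0.0935). Macf1 footprints measured 43.1, 68.1 and 45.7 CPM in sgOgfod1 and 25.5, 25.6 and 26.4 CPM in sgScramble mice, a rise of 1.01 ± 0.16 (adjusted p = 0.00479). Its groups did not overlap either, and with the length offset the Macf1 difference was 0.52 (adjusted p = 0.0687). With a replicate block, Ahnak alone of the 10 genes was called.

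Flna and Dync1h1 rose by 0.50 ± 0.12 and 0.53 ± 0.13 (adjusted p = 0.0435 and 0.0498 in edgeR). Flna footprints measured 647, 642 and 563 CPM in vehicle sgOgfod1 mice, against 435, 443 and 435 CPM in vehicle sgScramble mice. Each of these 2 calls was lost on leaving out any vehicle sgScramble mouse, or sgOgfod1 replicate 3 or 4. Myh9 footprints measured 1419, 1023 and 1157 CPM in sgOgfod1 and 1189, 1241 and 1172 CPM in sgScramble mice, and the difference was -0.00 ± 0.15 (adjusted p = 0.997).

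Plec (0.97 ± 0.24) and Syne2 (1.76 ± 0.45) were as large but more variable, with adjusted p of 0.0682 and 0.0825 in edgeR. Plec footprints measured 52.3, 96.4 and 46.7 CPM in vehicle sgOgfod1 mice and 32.04, 33.99 and 32.95 CPM in vehicle sgScramble mice. Syne2 footprints measured 9.40, 22.8 and 7.04 CPM in sgOgfod1 mice and 4.78, 2.87 and 3.28 CPM in sgScramble mice. In both genes replicate 4 was the high mouse, and the groups did not overlap with or without it. Syne1, by contrast, measured 94.4, 94.6 and 89.8 CPM in sgOgfod1 mice and 109, 89.4 and 105 CPM in sgScramble mice, a difference of -0.12 ± 0.19 (adjusted p = 0.804).

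Footprints set against RNA of the same mouse use the quantity, and the same 3 vehicle sgScramble mice, in which Ahnak, Sptbn1 and Macf1 were first noticed. A positive change of those genes is favoured by that choice, so the counts and the median are no independent support. In edgeR, 4 genes passed the threshold and all 10 had a positive log2 change, with a median of 1.20 beside 0.07 for all genes, and 0.0769% of 28606 genes were called. Syne2 rose by 1.56 ± 0.24 and Plec by 1.30 ± 0.22 (adjusted p = 0.012 and 0.044 in edgeR). Utrn rose by 1.24 ± 0.21 and Macf1 by 1.17 ± 0.16 (adjusted p = 0.0185 and 0.00679). Footprints per RNA read of Macf1 were 0.814, 0.986 and 0.749 in vehicle sgOgfod1 mice and 0.371, 0.367 and 0.382 in vehicle sgScramble mice. Those of Utrn were 0.666, 0.818 and 0.538 in sgOgfod1 and 0.299, 0.346 and 0.207 in sgScramble mice. In both genes every sgOgfod1 mouse lay above every sgScramble mouse. Ahnak and Sptbn1 had larger changes of 1.89 ± 0.40 and 1.58 ± 0.27 and did not pass (adjusted p = 0.221 and 0.0925). Both passed without vehicle sgOgfod1 replicate 4, at 1.42 and 1.25. Plec lost its call without any 1 vehicle sgScramble mouse or sgOgfod1 replicate 3 (adjusted p = 0.168 to 0.234 in edgeR). Utrn lost it without sgScramble replicate 2 or 5 or sgOgfod1 replicate 3 or 4 (adjusted p = 0.0548 to 0.207). Syne2 lost it without sgScramble replicate 3 or 5 or sgOgfod1 replicate 3 (adjusted p = 0.0578 to 0.133), and Macf1 kept it without any 1 mouse.

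Length moved with this result. The 471 other genes of at least 1960 codons also had a positive median translation efficiency change, 0.47, with 399 above 0 and 6 called as higher. After an offset for the length trend of each library, the median of the 10 genes was 0.52 for translation efficiency and 0 were called, and for footprints it was 0.41, beside 0.79 without the offset, with only Ahnak and Sptbn1 called. The footprint slope of log2 CPM on log2 coding length over other genes was 0.053, 0.117 and 0.022 in vehicle sgOgfod1 mice and -0.017, -0.019 and -0.028 in vehicle sgScramble mice. The part of length in the members' values was not tested. Tissue macrophage markers summed to 254 to 325 CPM of footprints in vehicle sgOgfod1 and 298 to 364 CPM in vehicle sgScramble mice, and 0 of the 12 tested were called. Their median log2 change was 1.07 all the same, and 1.08 over 16 in RNA. Mrc1 reached 9.40 CPM of footprints in vehicle sgOgfod1 against 2.12 in vehicle sgScramble mice and C1qb 4.29 against 1.37 CPM, while the abundant Adgre1 reached 79.6 against 117 CPM.

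**Figure D3:**
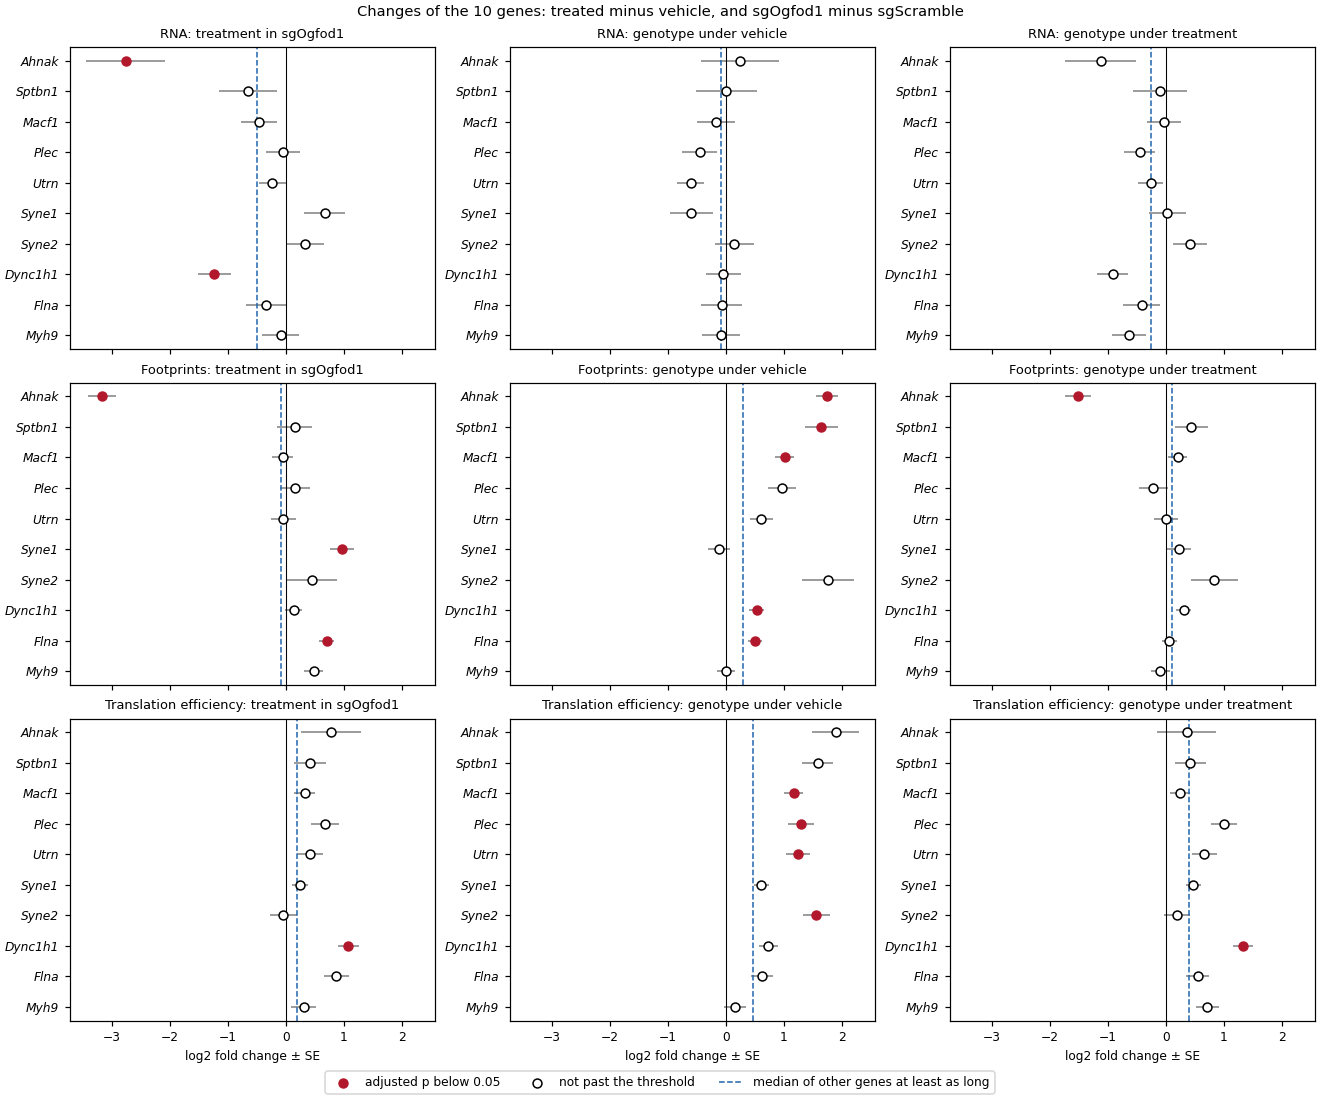
Log2 fold changes of the 10 genes with their SE in 9 comparisons, treated minus vehicle or sgOgfod1 minus sgScramble, with filled red points for an adjusted p below 0.05 and a dashed line at the median of other genes at least as long. Ahnak lies at -3.18 in footprints for treatment in sgOgfod1, and the translation efficiency points for genotype under vehicle all lie above 0.

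The third question was how sgOgfod1 and sgScramble cells differed under treatment. The treated sgScramble mice used here also served in the comparison in which the genes were first noticed. Values of Ahnak, Sptbn1 and Macf1 against them are therefore not independent of that choice. Ahnak footprints fell and Dync1h1 translation efficiency rose, and the RNA of the 10 genes gave 0 calls, where 0.391% of all genes were called (2 genes, Dync1h1 and Myh9, at an unadjusted p below 0.05 in edgeR, and 1, Dync1h1, called by DESeq2). Ahnak footprints measured 16.2 and 12.9 CPM in treated sgOgfod1 mice, against 35.5, 47.5, 51.5 and 33.1 CPM in treated sgScramble mice, with no overlap. The fall was -1.52 ± 0.23 (adjusted p = 0.00863 in edgeR), and Ahnak was the 1 gene of the 10 called in footprints, where 1.58% of all genes were. With the term for library numbers from 17 up it was -1.54 (adjusted p = 0.0561). Syne1 footprints rested on single mice, at 0.63 without treated sgOgfod1 replicate 5 (adjusted p = 0.0264 in edgeR) and -0.36 without treated sgOgfod1 replicate 4 (adjusted p = 0.3), beside 0.22 with both.

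Dync1h1 footprints per RNA read were 6.45 and 7.66 in treated sgOgfod1 mice and 2.61, 2.87, 2.75 and 3.13 in treated sgScramble mice. Its translation efficiency rose by 1.32 ± 0.17 (adjusted p = 0.00452 in edgeR), the only call among the 10, where 0.0664% of all genes were called. Dync1h1 stayed past the threshold under all 13 alternatives tried, at 0.90 to 1.43. Its RNA difference of -0.92 ± 0.27 did not pass (adjusted p = 0.128), and reached -1.10 (adjusted p = 0.00128) without treated sgScramble replicate 4. In the same comparison restricted to mice with footprints, Plec (-1.23), Utrn (-0.63), Dync1h1 (-1.03) and Myh9 (-0.81) were called as lower in RNA. Over all genes, that restriction gave 39 to 850 calls across 3 RNA comparisons. The share for this comparison cannot be read from that range, so these calls are no result about the 10 genes.

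In sgScramble cells, where the genes were first noticed, the treatment effect is given as a description. Footprints of all 10 genes had a positive log2 change, between 0.09 for Ahnak and 1.37 for Syne2, with a median of 0.69. RNA changes ran from -1.39 for Ahnak to 0.46 for Myh9, with a median of -0.21, and -0.03 without the 2 libraries that stood apart. Over the mice without footprints, the RNA median was -0.83, and -0.30 without those 2 libraries. In RNA, 15 of 16 tissue macrophage markers were higher in treated sgScramble mice, with a median of 4.83, and summed to 6644 CPM in replicate 4 and to 3930 and 4181 CPM in replicates 6 and 7, against 1008 to 1444 CPM in the other 4 treated and 873 to 1250 CPM in vehicle sgScramble mice. Their part in the values was not tested. Ahnak RNA measured 6.47, 9.60, 5.99, 0.679, 8.16, 29.7 and 34.9 CPM in treated sgScramble mice and 36.2, 32.6, 32.03, 40.8 and 37.9 CPM in vehicle sgScramble mice. The low and the high treated values were both found in mice without footprints: replicate 4, at 0.679, and replicates 6 and 7, at 29.7 and 34.9. Footprints per RNA read of Ahnak were 5.48, 4.95, 8.60 and 4.06 in treated and 1.35, 1.14 and 0.982 in vehicle sgScramble mice. The numerator changed little for this gene, and its mean was 41.9 CPM in treated and 39.2 CPM in vehicle mice. For Flna the numerator moved, with footprints of 924, 1104, 1036 and 793 CPM in treated and 435, 443 and 435 CPM in vehicle sgScramble mice, and RNA of 1581 to 2132 CPM and 1583 to 1790 CPM in the same mice.

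**Figure D4:**
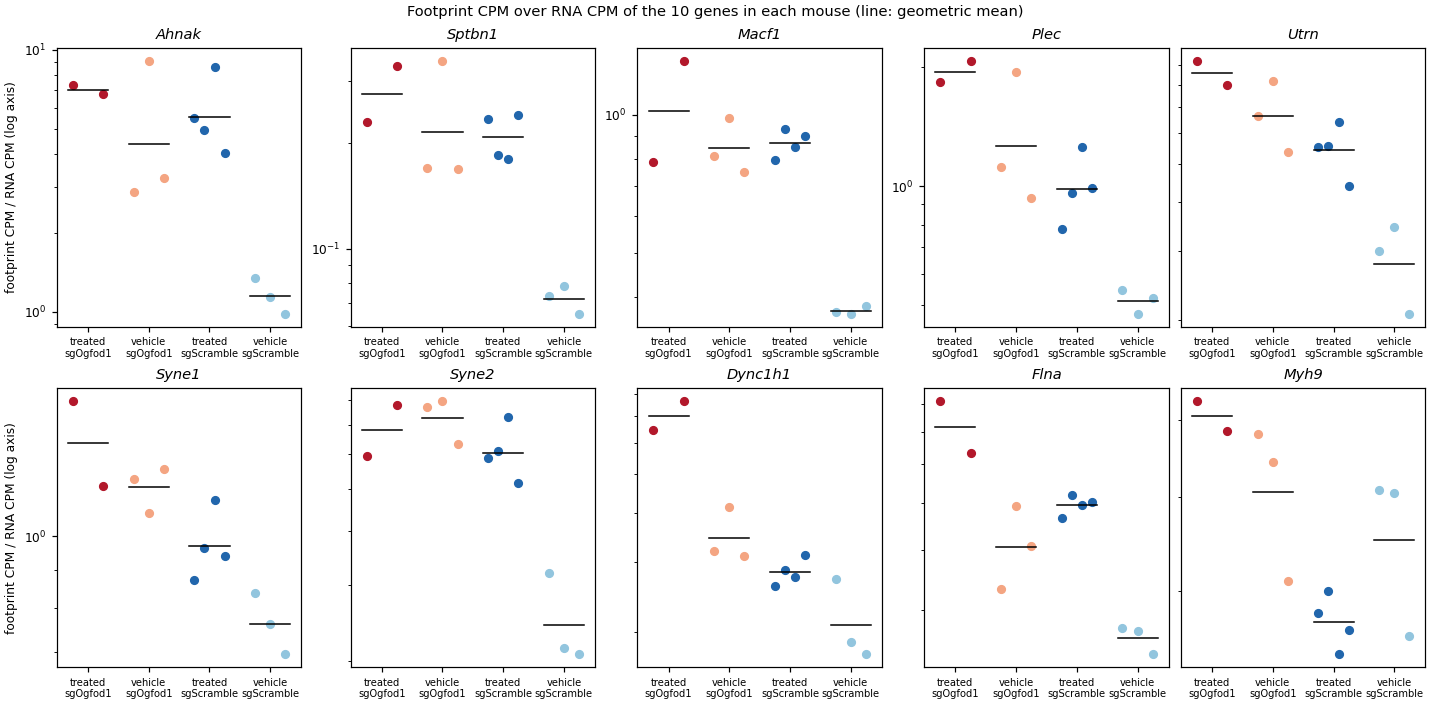
Footprint CPM over RNA CPM of the 10 genes on a log axis, 1 point per mouse with both assays, with the geometric mean of each group as a line. Vehicle sgScramble is the lowest group in every panel but Myh9, and Dync1h1 is highest in the treated sgOgfod1 mice, at 6.45 and 7.66.

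Over the 12 mice with both assays, 9 of the 10 genes shared 1 pattern of footprints per RNA read. Ahnak, Sptbn1 and Macf1 were first noticed by this ratio, with low vehicle sgScramble values, so the pattern is no independent support. It was not particular to these genes. Of 471 other genes of at least 1960 codons, 319 had a positive translation efficiency change for treatment in sgScramble. For genotype under vehicle, 399 of them did. The mean of the 10 centred log2 ratios was 0.64 and 0.73 in treated sgOgfod1 mice, 0.12, 0.59 and 0.02 in vehicle sgOgfod1 mice, 0.05, 0.11, 0.24 and 0.05 in treated sgScramble mice, and -0.69, -0.83 and -1.03 in vehicle sgScramble mice. Each gene's ratio correlated with the mean of the other 9 at a Pearson r of 0.821 (Syne1) to 0.952 (Plec), given as a description over 12 mice that share groups and libraries. Myh9, the shortest of them, stood aside with r = 0.315. Its footprints per RNA read were 6.28 and 5.85 in treated sgOgfod1 mice, 5.81, 5.43 and 4.10 in vehicle sgOgfod1 mice, 3.80, 4.00, 3.45 and 3.65 in treated sgScramble mice, and 5.08, 5.05 and 3.60 in vehicle sgScramble mice. Those of Syne1 were the narrowest of the other 9, from 0.694 to 1.52.

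Among 5624 other coding genes with a mean of at least 10 CPM in both assays, those with the most similar ratios included Cltc (r = 0.963), Cep350 (0.962), Kif23 (0.957), Mki67 (0.948), Phf3 (0.946), Prrc2c (0.939) and Prkdc (0.939). Cltc encodes the clathrin heavy chain, and Prkdc the catalytic subunit of a DNA repair kinase. These 7 have 953 (Kif23) to 4128 codons (Prkdc), against a median of 486 over the genes compared.

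Genes of the surrounding structures were followed in the sgOgfod1 treatment comparison, in 10 lists. Of all genes tested, 5.69% rose and 4.18% fell in RNA, and 4.65% rose and 3.56% fell in footprints. Over the 10 lists together, 3 of 105 genes tested rose and 7 fell in footprints. Of the spectrin and membrane skeleton, 0 of 21 tested rose and 4 fell in RNA, and 0 of 16 rose and 2 fell in footprints. Epb41l2 and Epb41, of the 4.1 family that anchors spectrin to actin, fell by 0.92 ± 0.22 and 0.44 ± 0.14 in RNA (adjusted p = 0.00846 and 0.043 in edgeR) and by 0.74 ± 0.22 and 0.49 ± 0.13 in footprints (adjusted p = 0.0479 and 0.0285). The ankyrin gene Ank2 fell by 2.98 ± 0.93 in RNA (adjusted p = 0.0431). The list median was -0.17 in RNA and -0.39 in footprints.

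Of the filamin, actinin and actin cross-linkers, 1 of 14 rose and 0 fell in footprints. Fblim1, which binds filamin at adhesions, rose by 1.33 ± 0.42 in RNA (adjusted p = 0.0465 in edgeR). Actn1, an actinin, rose by 0.82 ± 0.22 in footprints (adjusted p = 0.0423). Of the nonmuscle myosin II genes, 1 of 12 rose and 2 fell in RNA, and 0 of 14 rose and 1 fell in footprints. The myosin light chain kinase Mylk fell by 1.91 ± 0.52 in RNA (adjusted p = 0.0223) and by 0.89 ± 0.25 in footprints (adjusted p = 0.0393). Mprip, which recruits myosin phosphatase, fell by 0.68 ± 0.18 and the light chain Myl12a rose by 0.71 ± 0.22 in RNA (adjusted p = 0.0164 and 0.037).

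Of dynein and dynactin genes, 2 of 25 rose and 0 fell in RNA, and 0 of 23 rose and 1 fell in footprints. The light chain Dynll2 rose by 0.51 ± 0.15 and the dynein regulator Ndel1 by 0.58 ± 0.18 in RNA (adjusted p = 0.0381 and 0.0421 in edgeR). Footprints of Dctn1, the largest dynactin subunit, fell by 0.43 ± 0.13 (adjusted p = 0.0451). Of the end-binding and microtubule linkers, 0 of 11 rose and 2 fell in RNA, namely Map4 (-0.75 ± 0.18) and Clasp2 (-1.19 ± 0.33; adjusted p = 0.00848 and 0.0229), and 0 of 10 rose and 1 fell in footprints, the end-binding gene Mapre2 (-0.58 ± 0.13; adjusted p = 0.0129).

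Of the nuclear envelope genes that work with nesprins, 1 of 12 rose in RNA, Lmna for the A-type lamins (0.88 ± 0.24; adjusted p = 0.02 in edgeR), and 1 of 11 rose in footprints, Emd for emerin (0.51 ± 0.15; adjusted p = 0.046), with 0 lower in either. Of the dystrophin-glycoprotein complex, which utrophin can join, 1 of 10 rose in RNA, the dystrobrevin Dtnb (0.61 ± 0.16; adjusted p = 0.0191), and 1 of 6 fell in footprints, the dystroglycan gene Dag1 (-0.63 ± 0.19; adjusted p = 0.0485). No plakin (4 tested in each assay) and no intermediate filament or plectin partner (5 and 3 tested) passed. Of Ahnak's 5 listed partners and paralogs, 1 of 5 rose and 1 fell in RNA, and 1 of 4 rose and 1 fell in footprints, as named above. Translation efficiency gave 0 calls in the 10 lists.

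For genotype under vehicle, 3 of the 105 genes of these lists tested in footprints rose and 0 fell, where 0.908% of all genes tested rose. The 3, named after their values were seen, were Sptan1, the alpha spectrin that pairs with the Sptbn1 product (1.00 ± 0.17; adjusted p = 0.00865 in edgeR), the kinase gene Mylk (1.30 ± 0.23; adjusted p = 0.00875) and the actinin Actn4 (0.57 ± 0.14; adjusted p = 0.0415). Sptan1 footprints averaged 45.4 ± 13.0 CPM in vehicle sgOgfod1 mice and 22.5 ± 2.14 CPM in vehicle sgScramble mice (SD, n = 3 each), while its RNA averaged 86.4 ± 3.48 and 83.5 ± 6.13 CPM (SD, n = 5 each). Under treatment, genotype gave 1 lower gene in footprints, Ndel1 (-0.76 ± 0.17; adjusted p = 0.0364), and in RNA the sarcoglycan gene Sgcb as higher (0.50 ± 0.11; adjusted p = 0.0354) and the dynactin gene Dctn4 as lower (-0.44 ± 0.10; adjusted p = 0.0399). These were among 105 list genes tested in footprints and 119 in RNA. Of all genes tested, 0.99% were lower in footprints, and 0.265% were higher and 0.126% lower in RNA.

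The RNA level of the 10 genes moved with the length trend of the library. That trend is the slope of log2 CPM, relative to the mean of all RNA libraries, on log2 coding length over 14315 other coding genes. It was -0.404 in treated sgOgfod1 replicate 3 and -0.399 in treated sgScramble replicate 4, between -0.108 and -0.003 in the other treated sgOgfod1 mice, between -0.074 and 0.167 in the other treated sgScramble mice, and between 0.036 and 0.210 in the vehicle mice. The 10 genes deviated by -1.13 and -2.67 on average in those 2 libraries on the log2 scale, while 414 other genes of at least 1960 codons had median deviations of -1.40 and -1.46. Over 23 libraries, Pearson's r between the slope and the members' mean deviation was 0.845 and Spearman's rho 0.633, given as a description since the libraries fall into groups. Without those 2 libraries r was 0.560 and rho 0.519. Within treated sgScramble (n = 7) r was 0.891 and rho 0.536, and within treated sgOgfod1 (n = 6) r was 0.822 and rho 0.486, and each of these 2 groups holds 1 of the 2 libraries.

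**Figure D5:**
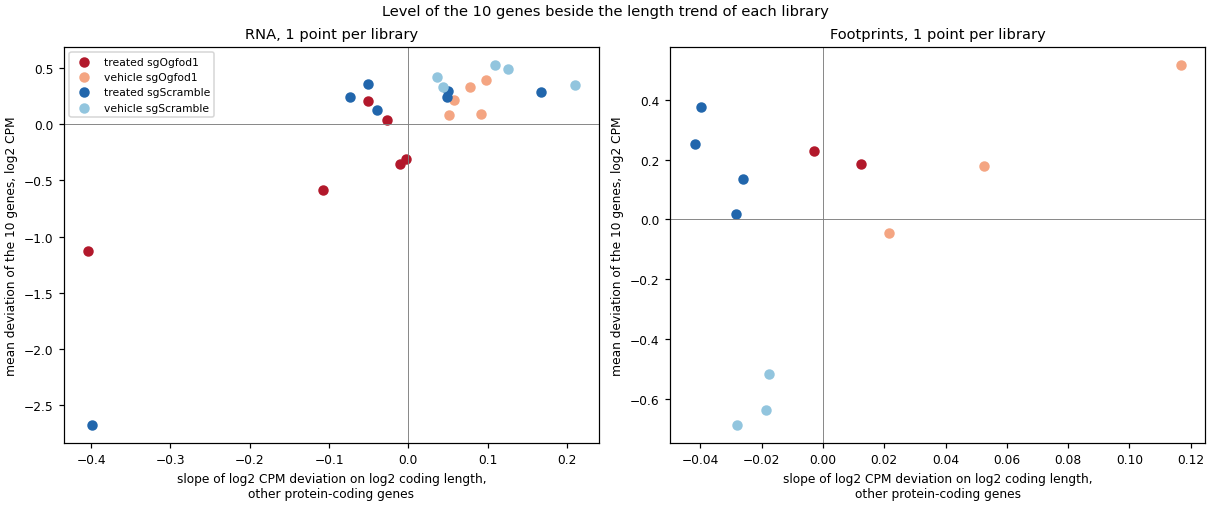
Mean log2 deviation of the 10 genes against the slope of log2 CPM deviation on log2 coding length over other coding genes, 1 point per library, RNA at left and footprints at right. The 2 RNA libraries at a slope near -0.40 lie lowest, at -1.13 and -2.67, and the 3 vehicle sgOgfod1 footprint libraries have the 3 highest footprint slopes.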

How the data were processed

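RNA was sequenced in 23 libraries and ribosome footprints in 12 from marrow of single mice, and 12 mice had both. The authors deposited raw counts, a whole number for each Ensembl gene in each library. The tools named in the submitters' processing notes are featureCounts, STAR, Bowtie2, cutadapt and SAMtools, and the builds GRCm38 and mm10. Versions, strand setting and treatment of multiply mapped reads are not given in the sources used here, and 0 columns matched no sample. Total counts and the smallest counts are given with the results, and precision is given by the spread between mice.

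Counts were tested with edgeR 4.0.16 (R 4.3.3): TMM scaling, filterByExpr, robust quasi-likelihood test, Benjamini-Hochberg adjustment over all genes tested, threshold 0.05. Each assay's 4 groups shared 1 fit (19 residual degrees of freedom in RNA, 8 in footprints). Translation efficiency is the assay-by-group term over 24 libraries (12 mice, mouse as block) (8 degrees of freedom). SEs were derived from the test statistic. CPM use TMM-scaled library sizes, and log2 CPM a prior count of 2. Genes, lengths and coordinates came from GENCODE M21 (GRCm38), promoters from RefSeq (GRCm38.p6). Scripts were tested on simulated data. Alternatives were RLE scaling, no filter, DESeq2 1.42.0, protein-coding genes only, a coding-length offset (lowess, span 0.3), a term for library numbers from 17 up, a replicate block, leaving out single mice and subsets of mice.

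The members, gene lists and tests were chosen with earlier results of these data known. Named genes were the 10 members, of each list up to 3 with the smallest adjusted p past 0.05 for treatment in sgOgfod1, and the 8 genes with the most similar ratios; 1 gene that this rule names is not reported here. Genes of the lists named for the genotype comparisons were chosen after their values were seen.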

Additional observations from a re-analysis of the deposited data

Results flagged for a closer look

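Of 60 sets of values (1 gene, 1 group of 4 to 7 mice; RNA, footprints or their ratio), 14 held a mouse far from the rest of its group, where chance gives about 1 in 20 groups. Treated sgScramble replicate 4 was set apart as the lowest mouse in RNA of 8 of the 10 genes, with Sptbn1 at 4.21 CPM, Macf1 at 6.38, Plec at 15.6, Utrn at 11.1, Syne1 at 18.6, Syne2 at 2.87, Dync1h1 at 8.67 and Flna at 252 CPM. Treated sgOgfod1 replicate 3 was set apart as the lowest for 3 genes, with Sptbn1 at 75.1, Dync1h1 at 13.2 and Flna at 472 CPM. These are the 2 libraries with the steepest negative length trend, and the part of that trend in their values was not tested. Tissue macrophage markers summed to 6644 CPM of RNA in treated sgScramble replicate 4, to 3930 and 4181 CPM in replicates 6 and 7, and to 1008 to 1444 CPM in the other treated sgScramble mice, and their part was not tested either. Sptbn1 RNA of vehicle sgOgfod1 replicate 5, at 326 CPM, lay below 4 close values of 356 to 361 CPM. In footprints, treated sgScramble replicate 3 was high for Macf1, at 49.9 CPM, and replicate 1 for Sptbn1, at 76.5 CPM.

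The effect of treatment on Ahnak footprints in sgOgfod1 minus that in sgScramble was -3.27 ± 0.30 (SE) on the log2 scale. This difference includes the sgScramble comparison in which Ahnak was first noticed, and it was computed after the data were seen. It is therefore a description, with no test.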

How the results depend on the processing

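With 2 to 4 footprint libraries a group, single mice decide several calls, and 11 of 120 footprint values rest on under 100 reads. Counts of calls over all genes moved in these settings too, and the end gives them as ranges over several comparisons. No share for a single comparison can be read from such a range. The members' counts under these settings are therefore no result about the 10 genes. The number of the 10 genes called moved as follows. For treatment in sgOgfod1, RNA gave 5 with the length offset and 5 without the 2 libraries standing apart, beside 2 (3 without them in mice without footprints, beside 0), and the offset turned Plec to 0.75. Footprints gave 1 with the library-number term, beside 3, and translation efficiency gave 0 with that term and 2 with no filter, DESeq2, the replicate block, coding genes only or the length offset, beside 1. For genotype under vehicle, footprints gave 8 with no filter and 2 with the offset, beside 5, with a median of 0.41. Translation efficiency gave 8 with no filter, 9 with DESeq2, 8 with coding genes only and 0 with the offset, beside 4, with an offset median of 0.52. For genotype under treatment, RNA gave 1 with DESeq2, 1 without the 2 libraries and 4 in mice with footprints, beside 0. Footprints gave 0 with the library-number term, beside 1, and translation efficiency 4 with no filter, 2 with DESeq2 and 3 with coding genes only, beside 1, with an offset median of 0.17. In sgScramble the offset gave a translation efficiency median of 0.73, and for RNA medians it gave 0.30 (treatment in sgOgfod1), 0.15 (treatment in sgScramble) and 0.04 (genotype under treatment), all negative without it. The length trend correlation was 0.560 without the 2 farthest libraries. The cause of these shifts was not tested.

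Leaving out single mice gave 0 to 1 called for RNA under genotype with treatment, where 48 to 376 of all genes tested were called. In that comparison the translation efficiency median was 0.50 to 0.70. For treatment in sgOgfod1, medians were -0.017 to 0.46 in footprints and 0.26 to 0.66 in translation efficiency. Footprint and translation efficiency calls are not counted for these comparisons, since some of the fits leave 1 treated sgOgfod1 mouse. For genotype under vehicle, footprints gave medians of 0.53 to 0.93 and 2 to 7 called, and translation efficiency 1.04 to 1.32 and 1 to 5. Over all genes, the same fits gave 70 to 335 footprint and 3 to 33 translation efficiency calls. Sptbn1 footprints there lost their call without any 1 vehicle sgScramble mouse (adjusted p = 0.0808 to 0.0935 in edgeR).

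The replicate numbers were not taken to pair mice. In RNA, 5 of 31 same-numbered pairs from different groups correlated above 0.1, against 29 of 166 differently numbered pairs. In footprints it was 0 of 11 against 3 of 42. The highest RNA correlation was 0.619 among same-numbered and 0.363 among differently numbered pairs. With a replicate block, genotype under vehicle gave 1 footprint call, Ahnak (Sptbn1 was 1.43, adjusted p = 0.176). Over all genes, RLE scaling moved 0 of 9 counts of calls by more than 1.5 times, DESeq2 8 of 9 (32 to 3232 calls), the length offset 6 of 9, and the replicate block 7 of 9. Using no filter moved 7 of 9 and coding genes only 4 of 9. In RNA, leaving out the 2 libraries standing apart moved 4 of 4 (88 to 3877 calls). Keeping only mice with footprints moved 3 of 3 (39 to 850 calls). The library-number term left 2 to 1782 calls. Over all settings and genes, 137 values with no call in either fit changed sign.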
